A study of Mus musculus with 12 samples.

Results

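Surface and matrix genes of the oligodendrocyte precursor were followed in the RNA of cultured mouse forebrain neural stem cells (NSCs). The 9 genes are Pdgfra, Cspg4, Cspg5, Vcan, Bcan, Ncan, Lhfpl3, Neu4 and Tnr. They were found by symbol among 45792 listed genes and joined by Ensembl identifier to the counts of each library. All 9 passed the filter on low counts, which kept 15706 genes. Primary NSCs came from the forebrains of newborn C57BL/6J wild-type (WT) pups and of pups without Ncf1, the gene of an organizing subunit of the Nox2 NADPH oxidase. The comparison asked how loss of Ncf1 changes the NSC transcriptome and which of those changes the secreted factor Igfbp2 reverses.

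Each of the 3 groups held 4 libraries, 1 per culture according to the methods, numbered as in the labels. WT replicates 9 to 12 are untreated in the labels. Ncf1-/- replicates 1 to 4 carry no treatment in the labels and were given vehicle according to the methods of the study. Ncf1-/- replicates 5 to 8 received mouse recombinant Igfbp2 at 100 ng/ml, the dose in the labels, 48 h after plating, and RNA was taken 48 h later. The methods of the study give a different dose, and which one these cultures received could not be settled. All cultures grew under proliferation conditions in serum-free medium with EGF and FGF, so these are levels in dividing cultures and not in oligodendrocyte precursors sorted from brain. The Ncf1 deletion was present in every cell from the start, both Ncf1-/- groups carry it, and WT cultures given Igfbp2 were not analysed here.

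Libraries held between 18201622 and 34086554 expected counts (median 20932987). Ncf1 itself had between 1 and 7 counts per library, too few to check the genotype. The summed level of 4 Y-linked genes lay between 105 and 116 CPM (counts scaled for library size) in untreated Ncf1-/- libraries and between 7.80 and 9.18 in Igfbp2-treated ones. Treatment therefore cannot be told apart from sex-linked expression, or from other differences between the animals of origin, although the methods describe paired cultures of the same animals. WT replicates 9 to 11 had 107 to 118 CPM of the Y-linked genes and WT replicate 12 had 6.46. Xist, the RNA of the inactive X chromosome, was at 3.87 to 5.22 CPM in WT replicates 9 to 11, at 291 in WT replicate 12, at 72.3 to 87.8 in untreated Ncf1-/- libraries and at 166 to 275 in treated ones. Untreated Ncf1-/- libraries thus held both Y-linked RNA and Xist, and no group matched another in both. In both, WT replicate 12 was closer to the treated Ncf1-/- libraries than to WT replicates 9 to 11. One of the sample lists in the released code names that last WT library as treated with apocynin, an inhibitor of NADPH oxidase, against the labels, which were followed. The fold changes of the 9 genes against WT are therefore given with and without WT replicate 12.

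Oligodendrocyte precursors arise from neural stem cells, divide in response to platelet-derived growth factor and carry chondroitin sulfate proteoglycans on their surface and in the matrix around them. The lecticans (versican, brevican, neurocan and aggrecan) bind hyaluronan at one end and tenascins at the other, and together with tenascin-R they build much of the brain's extracellular matrix. Several of these genes are also expressed by astrocytes, neurons or stem cells, so that none of them alone marks the precursor.

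Promoter sequence is shown for 4 of the genes that were lower in both Ncf1-/- groups, chosen because their proximal promoters differ in the short motifs that they hold. The sequences are the 250 bases before the RefSeq start on build GRCm38.p6, read 5′ to 3′ on the strand of the gene, with motif matches on either strand in capitals. The RefSeq table held a promoter for 8 of the 9 genes and none was matched for Cspg5. Tnr lies at chr1:159523519-159523768 on the plus strand, Pdgfra at chr5:75152001-75152250 on the plus strand, Bcan at chr3:88000357-88000606 on the minus strand and Lhfpl3 at chr5:22745804-22746053 on the plus strand.
Tnr: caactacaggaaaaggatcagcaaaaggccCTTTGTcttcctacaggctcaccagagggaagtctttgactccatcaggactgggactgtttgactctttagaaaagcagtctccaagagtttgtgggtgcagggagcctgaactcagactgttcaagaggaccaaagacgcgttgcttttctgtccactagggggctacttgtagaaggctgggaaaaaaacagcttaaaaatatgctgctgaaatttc
Pdgfra: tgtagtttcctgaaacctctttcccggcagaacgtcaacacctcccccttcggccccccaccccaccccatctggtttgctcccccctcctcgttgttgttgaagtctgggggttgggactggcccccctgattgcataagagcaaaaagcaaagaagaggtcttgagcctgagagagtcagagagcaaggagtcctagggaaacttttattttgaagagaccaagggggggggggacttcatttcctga
Bcan: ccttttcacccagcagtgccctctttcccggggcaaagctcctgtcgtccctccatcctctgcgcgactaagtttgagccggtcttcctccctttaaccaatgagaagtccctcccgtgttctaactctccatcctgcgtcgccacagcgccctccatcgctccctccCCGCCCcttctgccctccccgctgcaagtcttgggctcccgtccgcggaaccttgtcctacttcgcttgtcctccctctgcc
Lhfpl3: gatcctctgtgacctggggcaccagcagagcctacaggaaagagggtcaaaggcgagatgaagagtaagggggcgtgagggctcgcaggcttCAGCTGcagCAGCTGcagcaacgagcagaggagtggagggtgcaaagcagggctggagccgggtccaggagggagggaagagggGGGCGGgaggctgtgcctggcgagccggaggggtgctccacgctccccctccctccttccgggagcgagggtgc

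The motifs searched were the E-box CAGCTG, the SOX core letters ACAAAG and ACAATG, the GC box GGGCGG and the TATA box TATAAA. No match overlapped another motif in these 4 promoters. Tnr held 1 ACAAAG, a motif found in 16.5% of 32817 promoters of this length. Lhfpl3 held 2 CAGCTG, found in 13.0% of them, and 1 GC box. Bcan held 1 GC box, a motif of 32.7% of promoters, and none of the 5 letter strings was found in this window of Pdgfra. ACAATG, present in 10.7% of promoters, was found in none of the 8 genes, and TATAAA, present in 12.4%, was found in Ncan alone. Their GC content ran from 46.8% for Tnr to 67.2% for Lhfpl3, against a median of 52.4% over all promoters.

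Per length of transcript, the members spanned a wide range in WT NSCs. The scale here is TPM, which RSEM corrects for length and which sums to a fixed total in each library. Bcan was highest at 384 ± 38.3 TPM (mean ± SD, n = 4), followed by Ncan at 271 ± 61.0, Tnr at 164 ± 51.4 and Cspg5 at 155 ± 48.4. The last 2 in that order did not differ beyond their spread. Pdgfra followed at 44.2 ± 14.6 TPM, Vcan at 20.8 ± 1.31, Lhfpl3 at 20.5 ± 3.46, Cspg4 at 8.84 ± 1.52 and Neu4 at 3.29 ± 0.691, and Vcan and Lhfpl3 did not differ beyond their spread. Tnr moved furthest in that order, from the third place in WT to the seventh in untreated Ncf1-/- NSCs at 6.69 ± 0.686 TPM. There Bcan led at 161 ± 5.18 TPM and Cspg5 was next at 144 ± 6.94. In Igfbp2-treated Ncf1-/- NSCs Ncan led at 147 ± 33.2 TPM, with Cspg5 at 118 ± 15.4 and Bcan at 109 ± 19.5, and the ranges of these 3 genes overlapped.

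**Figure D1:**
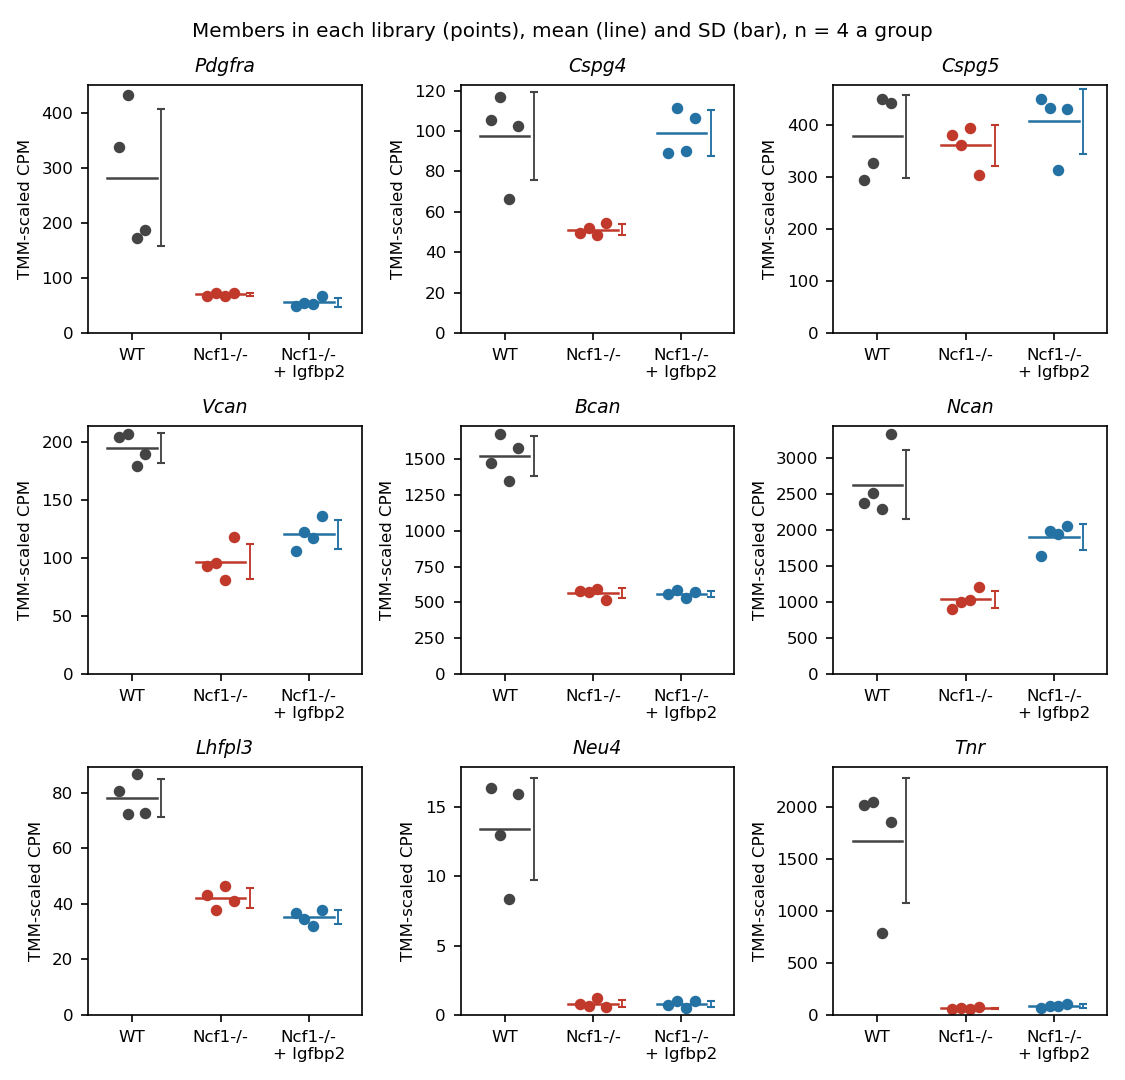
Level of each of the 9 genes (TMM-scaled CPM, linear axis from 0) in WT, untreated Ncf1-/- and Igfbp2-treated Ncf1-/- NSCs, with a point per library, a line at the mean and a bar for the SD (n = 4). Both Ncf1-/- groups lie below every WT library for Pdgfra, Vcan, Bcan, Ncan, Lhfpl3, Neu4 and Tnr, while the 3 groups overlap for Cspg5 and Cspg4 is low in untreated Ncf1-/- NSCs alone.

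Most of these genes were lower without Ncf1. Between untreated Ncf1-/- and WT NSCs, 8 of the 9 genes fell, none rose and Cspg5 did not pass the test. Over all genes tested, 57.2% were called in this comparison, 28.9% higher and 28.2% lower, at an adjusted p under 0.05 (edgeR quasi-likelihood test, Benjamini-Hochberg over all genes). The median log2 fold change was −1.34 for the 9 genes and 0.02 for all genes tested. The 4 Ncf1-/- libraries did not overlap the 4 WT libraries for those 8 genes, which was the case for 51.2% of all genes tested. In bulk RNA, fewer cells of a type and less RNA per cell cannot be told apart.

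Tnr and Neu4 fell most. Tnr (ENSMUSG00000015829, chr1:159523769-159931729, plus strand) encodes tenascin-R, a matrix glycoprotein that links lecticans to one another. Its scaled count was 2026, 2052, 786 and 1859 CPM in WT replicates 9 to 12 and 61.4, 63.2, 61.5 and 73.2 CPM in untreated Ncf1-/- replicates 1 to 4. WT replicate 11 stood well below the other WT libraries and still above every Ncf1-/- library. The fall was −4.70 ± 0.29 on the log2 scale (SE; edgeR adjusted p = 8.34e-08), and it was −4.93 without WT replicate 11 and −4.69 without WT replicate 12. Neu4 (ENSMUSG00000034000, chr1:94020451-94028334, plus strand) encodes a sialidase, an enzyme that removes sialic acid from glycoproteins and glycolipids. It reached 16.4, 13.0, 8.35 and 15.9 CPM in the WT libraries and 0.784, 0.677, 1.19 and 0.597 CPM in the untreated Ncf1-/- libraries. These levels rested on 241 to 360 counts in WT and 14 to 27 counts in untreated Ncf1-/- NSCs. Its groups did not overlap despite the low counts, at a log2 fold change of −4.04 ± 0.28 (edgeR adjusted p = 1.86e-07). On log2(TPM + 1), a scale that understates changes of low genes, it was −1.84, and −1.89 between treated Ncf1-/- and WT NSCs, still called.

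Pdgfra (ENSMUSG00000029231, chr5:75152292-75198215, plus strand) encodes the receptor for PDGF-A, a mitogen of oligodendrocyte precursors. It was measured at 339, 433, 173 and 187 CPM in WT and at 68.2, 72.2, 68.2 and 72.5 CPM in untreated Ncf1-/- NSCs. WT libraries formed a high and a low pair, whereas the Ncf1-/- libraries lay close together, with a coefficient of variation of 44.3% against 3.39%. Pdgfra fell by 2.01 on the log2 scale (SE 0.25, edgeR adjusted p = 1.63e-05). Exons of Pdgfra overlap Gm42802 and Gm42803 on the opposite strand, those of Lhfpl3 overlap A930003O13Rik and those of Tnr overlap Gm38039. Whether the counting used strand is not given in the sources used here, so reads of these antisense genes cannot be told apart from reads of the members.

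All 3 lecticans of the set were lower in untreated Ncf1-/- NSCs. Bcan (ENSMUSG00000004892, chr3:87987531-88000230, minus strand) encodes brevican, a lectican of the mature brain matrix. It was at 1477, 1677, 1350.3 and 1578 CPM in WT and at 580.2, 570.1, 591 and 517 CPM in untreated Ncf1-/- NSCs, a log2 fold change of −1.43 ± 0.09 (edgeR adjusted p = 1.27e-07). Both groups were tight and far apart. Ncan (ENSMUSG00000002341, chr8:70093085-70120873, minus strand) encodes neurocan, a lectican of the developing brain, and had 2375, 2506, 2290.0 and 3325 CPM in WT against 908, 1001, 1033 and 1199.9 CPM. WT replicate 12 was the highest library for Ncan. Its log2 fold change of −1.34 ± 0.14 (edgeR adjusted p = 5.50e-06) became −1.24 without that library. Vcan (ENSMUSG00000021614, chr13:89655312-89742509, minus strand), the versican gene, had 205, 207, 179.6 and 189 CPM in WT against 93.1, 95.7, 81.1 and 118 CPM, a log2 fold change of −1.01 ± 0.11 (edgeR adjusted p = 8.46e-06).

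The remaining members changed less. Cspg4 (ENSMUSG00000032911, chr9:56865033-56899870, plus strand) encodes the transmembrane proteoglycan NG2, and was at 105, 117, 66.3 and 102.3 CPM in WT against 49.6, 52.0, 48.6 and 54.5 CPM in untreated Ncf1-/- NSCs. WT replicate 11, again the lowest WT library, was still above the highest Ncf1-/- library, and Cspg4 fell by 0.93 on the log2 scale (SE 0.15, edgeR adjusted p = 0.000125). Lhfpl3 (ENSMUSG00000106379, chr5:22746059-23275597, plus strand) belongs to a family of tetraspan membrane proteins and is widely used as a precursor marker. It was at 80.8, 72.4, 86.8 and 72.8 CPM in WT against 43.3, 37.7, 46.5 and 41.0 CPM, a log2 fold change of −0.89 ± 0.09 (edgeR adjusted p = 3.00e-06). Cspg5 (ENSMUSG00000032482, chr9:110243783-110262576, plus strand) encodes the transmembrane proteoglycan neuroglycan C. Its 295, 327, 450.4 and 442 CPM in WT overlapped the 382, 362, 395 and 305 CPM in untreated Ncf1-/- NSCs. The log2 fold change of Cspg5 was −0.07 with a 95% interval from −0.41 to 0.27 (edgeR adjusted p = 0.728), and it was 0.11 with scaling by library totals and 0.03 without WT replicate 11.

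The 8 genes were also called lower without WT replicate 12, that is, against WT replicates 9 to 11. These had Y-linked levels like those of the untreated Ncf1-/- libraries and lower levels of Xist, and the part of sex-linked expression was not tested. In that fit the log2 fold change was −2.21 for Pdgfra, −0.95 for Cspg4, −1.06 for Vcan, −1.45 for Bcan, −0.96 for Lhfpl3 and −3.98 for Neu4, and it was −0.01 for Cspg5, which was not called. WT replicate 11 was the lowest WT library in CPM for Tnr, Neu4, Pdgfra, Cspg4, Vcan, Bcan and Ncan, and 8 genes were also called without it.

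**Figure D2:**
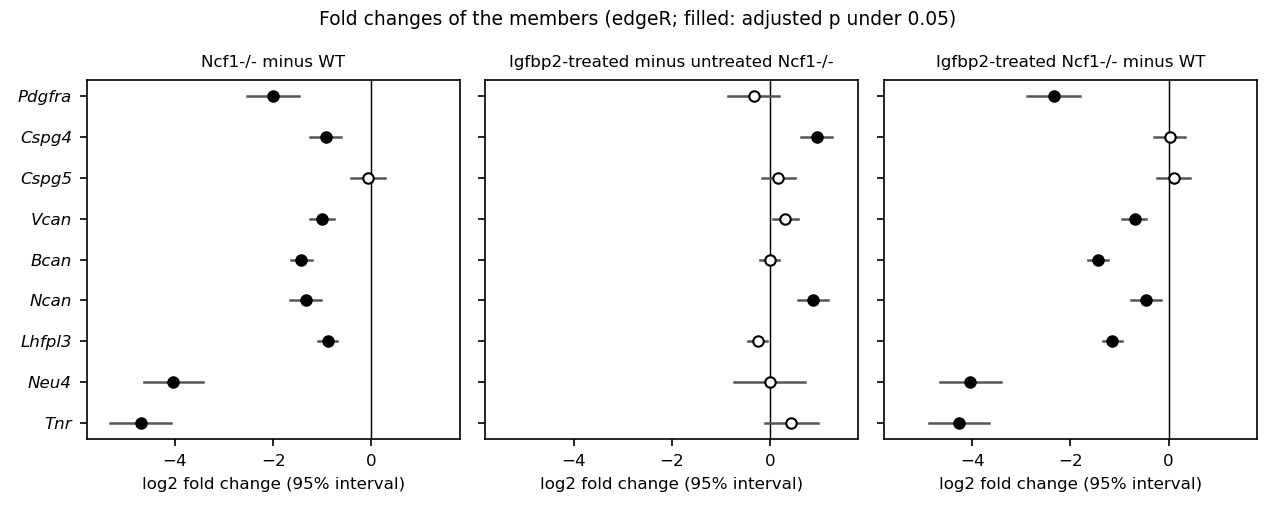
Log2 fold change of each gene (point) with its 95% interval (line) in 3 comparisons of 4 against 4 libraries, filled where the edgeR adjusted p was under 0.05. In untreated Ncf1-/- against WT NSCs the points run from −4.70 for Tnr to −0.07 for Cspg5, and between the Ncf1-/- groups Cspg4 (0.95) and Ncan (0.88) are the filled points.

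Igfbp2 treatment was followed by a higher level of 2 of the 9 genes. Between Igfbp2-treated and untreated Ncf1-/- NSCs, Cspg4 and Ncan rose, no member fell and 7 did not pass the test. Over all genes 25.0% were called, 14.2% higher and 10.7% lower (edgeR), so that 2 of 9 is near the background share. That share moved with single libraries and was 14.6% without untreated replicate 1, 14.4% without untreated replicate 2 and 15.9% without treated replicate 6, with 2 members called each time. The groups did not overlap for Pdgfra, Cspg4 and Ncan, against 34.1% of all genes. The tally changed with the fit. In a fit of the 8 Ncf1-/- libraries alone, without WT, 3 of the 9 genes were called higher and 2 lower, where 37.8% of all genes tested were called. That fit added Tnr (0.39, edgeR adjusted p = 0.0363) as higher, and Pdgfra (−0.38, edgeR adjusted p = 0.00837) and Lhfpl3 (−0.30, edgeR adjusted p = 0.0115) as lower. With the animal named in the methods as a replicate block in the same 8 libraries, 4 were called higher and 2 lower, against 36.0% of all genes, and the gene called with the block and not without it was Vcan (0.27, edgeR adjusted p = 0.0353). With scaling by library totals 2 were higher and 2 lower (Bcan and Lhfpl3), where 37.6% of all genes were called. With limma on log2(TPM + 1) none was higher and 3 were lower (Pdgfra, Bcan and Lhfpl3), where 40.5% of all genes were called. The test of the study on TPM called none of the 9, with Cspg4 at 0.49 and Ncan at 0.41, and 2149 of 27880 genes. None of the 9 was called at a log2 fold change of at least 1. As given above, this comparison cannot be told apart from the difference in Y-linked expression. Nor can it be told apart from other differences between the animals of origin, since Y-linked levels differed within each pair that the methods describe.

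Cspg4 was at 89.0, 111, 89.95 and 106 CPM in Igfbp2-treated replicates 5 to 8, against 48.6 to 54.5 CPM in untreated Ncf1-/- libraries. In CPM every treated library was above every untreated one and within the WT range. In TPM the treated libraries, at 5.23 to 8.47, overlapped the untreated ones, at 4.25 to 5.85, and 2 of them lay below the lowest WT library at 6.86. The rise was 0.95 ± 0.15 in log2 units (edgeR adjusted p = 0.00135), and it was 0.40 and no longer called with limma on log2(TPM + 1) (adjusted p = 0.0646). Ncan reached 1633, 1990.0, 1935 and 2047 CPM in treated libraries, against 908 to 1199.9 CPM without Igfbp2 and 2290.0 CPM in the lowest WT library. In CPM its levels lay between those of the other groups with no overlap on either side. In TPM the treated libraries, at 108 to 178, overlapped the untreated ones, at 87.4 to 145, and lay below the lowest WT library at 214. Ncan rose by 0.88 on the log2 scale (SE 0.14, edgeR adjusted p = 0.00179), against 0.40 on log2(TPM + 1), where the call was lost (limma adjusted p = 0.114). Both stayed called with scaling by library totals, Cspg4 at 0.68 (edgeR adjusted p = 0.00275) and Ncan at 0.60 (edgeR adjusted p = 0.00672). The median over all genes between these groups was 0.04 with TMM factors, −0.23 with library totals and −0.30 on log2(TPM + 1), and Cspg4 and Ncan lay above that median on each of these scales.

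For the other members, treated and untreated Ncf1-/- NSCs were closer. Bcan was at 558, 584, 531 and 569 CPM after Igfbp2, within the spread of the untreated libraries, with a log2 fold change of −0.01 (95% interval −0.21 to 0.19, edgeR adjusted p = 0.947). On log2(TPM + 1) the value for Bcan was −0.58 and called (limma adjusted p = 0.00599). Neu4 had 0.720, 1.02, 0.526 and 0.982 CPM, a log2 fold change of 0.00 with an interval from −0.73 to 0.72. The libraries of both groups were interleaved for both genes, and the interval was much wider for Neu4. Tnr had 65.1, 87.7, 88.2 and 109 CPM (log2 fold change 0.43, edgeR adjusted p = 0.215), all far below WT. Vcan had 106, 122, 118 and 136 CPM (0.31, edgeR adjusted p = 0.0602), and its value was 0.44 and called without untreated Ncf1-/- replicate 4 (edgeR adjusted p = 0.0115). The values of Vcan and Tnr turned to −0.13 and −0.02 on log2(TPM + 1). Pdgfra had 49.6, 54.0, 52.8 and 67.2 CPM, below every untreated library, with a log2 fold change of −0.33 that did not pass the test (edgeR adjusted p = 0.33) and was called lower in 4 of 17 alternative fits. Lhfpl3 had 36.8, 34.6, 32.1 and 37.8 CPM (−0.25, edgeR adjusted p = 0.0532) and was called lower in 9 of 17 alternative fits. Cspg5 had 449.8, 432, 314 and 432 CPM (0.17, edgeR adjusted p = 0.435), and its sign turned to −0.10 with library totals.

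Against WT, Igfbp2-treated Ncf1-/- NSCs kept most of the lower levels. Of the 9 genes 7 were lower, none was higher, and Cspg4 and Cspg5 did not pass the test. Over all genes, 62.4% were called in this comparison, 31.6% higher and 30.8% lower (edgeR). The same 7 genes did not overlap between the groups, which held for 54.3% of all genes. Their log2 fold changes were −4.26 for Tnr, −4.04 for Neu4, −2.34 for Pdgfra, −1.44 for Bcan, −1.15 for Lhfpl3, −0.69 for Vcan and −0.46 for Ncan, the last being −0.88 on log2(TPM + 1). The median was −1.15 for the 9 genes and −0.01 for all genes tested. Cspg4 differed from WT by 0.02 (95% interval −0.29 to 0.33, edgeR adjusted p = 0.901) and Cspg5 by 0.10 (−0.23 to 0.44, edgeR adjusted p = 0.577). Both values were −0.34 with limma on log2(TPM + 1), and with library totals Cspg4 was at −0.07 and Cspg5 at 0.00. This comparison shares its WT libraries with that of untreated Ncf1-/- NSCs, and the same 7 genes were called without WT replicate 12. There they were at −4.29 for Tnr, −4.02 for Neu4, −2.57 for Pdgfra, −1.49 for Bcan, −1.25 for Lhfpl3, −0.78 for Vcan and −0.40 for Ncan, with Cspg4 at −0.03 and Cspg5 at 0.12. WT replicate 12 had low Y-linked levels and is named as apocynin-treated in a sample list of the released code. It had 1859 CPM of Tnr, 15.9 of Neu4, 187 of Pdgfra, 1578 of Bcan and 3325 of Ncan, above each treated library. The part of sex-linked expression or of apocynin in these levels was not tested.

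The lectican mixture differed between the Ncf1-/- groups. The summed TPM of Bcan, Ncan, Vcan and Acan was 676 ± 92.9 in WT, 283 ± 29.0 in untreated and 266 ± 53.5 in Igfbp2-treated Ncf1-/- NSCs (mean ± SD, n = 4). In TMM-scaled CPM, which carry no length correction, the same genes summed to 4341 ± 555 in WT, 1698 ± 105.5 in untreated and 2583 ± 203 in treated Ncf1-/- NSCs, so that treated libraries were above untreated ones on this scale and not in TPM. Ncan made up 39.8% ± 3.79 of the TPM sum in WT and 38.9% ± 4.36 in untreated Ncf1-/- NSCs, with overlapping libraries. Without WT replicate 12 the WT sum was 638.5 ± 66.4 TPM and its Ncan share 37.95% ± 1.39 (n = 3). After Igfbp2 Ncan made up 55.1% ± 2.33, between 51.8% and 56.9% per library, above the 34.9% to 45.1% of untreated libraries. Bcan made up 41.2% ± 2.41 after Igfbp2, against 57.4% ± 4.72 without it and 57.1% ± 3.57 in WT. Thus the lectican sum in TPM was lower in both Ncf1-/- groups, at a WT-like Bcan to Ncan ratio in untreated libraries and a ratio turned toward Ncan in treated ones. Outside the treated group the Ncan share was highest in WT replicate 12 (45.2%), low in Y-linked RNA. It was 45.1% in untreated Ncf1-/- replicate 4, which was high in Y-linked RNA. The part of sex-linked expression in these shares was not tested. Vcan held between 2.74% and 4.43% in every library, and Acan, the aggrecan gene, at most 0.0291%. These shares are taken within a library and do not depend on scaling between libraries, no test was run on them, and they rest on the transcript lengths that RSEM used.

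**Figure D3:**
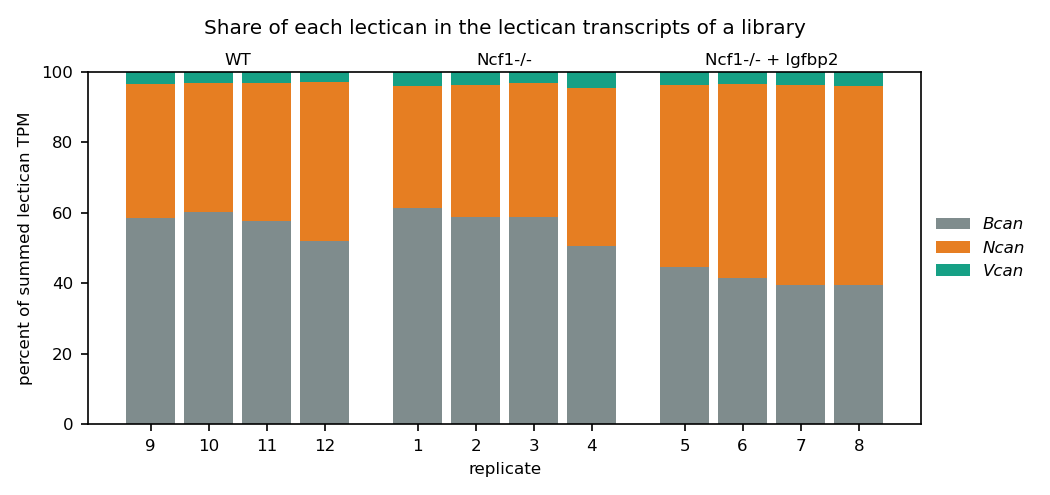
Percent of the summed lectican TPM held by Bcan, Ncan and Vcan in each library (stacked bars from 0 to 100; Acan, at most 0.0291%, is not drawn), grouped as WT, untreated Ncf1-/- and Igfbp2-treated Ncf1-/- with the replicate number below. Ncan holds 51.8% to 56.9% in the 4 treated libraries and at most 45.2% in any other library.

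Genes for partners of these proteins moved in both directions. Of 14 listed lectican and hyaluronan partners 12 were tested, and 4 rose, 2 fell and 6 did not pass between untreated Ncf1-/- and WT NSCs (median 0.16, edgeR), near the 57.2% of all genes called there. Fbln2, a fibulin that binds lecticans, rose by 3.01 on the log2 scale (SE 0.71), and the link protein genes Hapln3 and Hapln4 rose by 1.89 and 1.19, together with Fbln1 at 1.26. Ptprs, a receptor for chondroitin sulfate chains, had a log2 fold change of −1.19, and Ptprz1, a receptor phosphatase that is itself a proteoglycan, one of −0.43. After Igfbp2, 3 of the 12 rose and none fell, where 25.0% of all genes were called, 14.2% higher and 10.7% lower. These were Hapln4 (0.98, edgeR adjusted p = 0.00124), Ptprs (0.47, edgeR adjusted p = 0.032) and Tnc (1.47, edgeR adjusted p = 0.00668). Tnc, the gene of tenascin-C, was named after its values were seen, at 287 CPM without and 795 CPM with Igfbp2.

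For the enzymes that build and sulfate chondroitin chains, 19 of 20 genes were tested, of which 8 rose and 2 fell in untreated Ncf1-/- against WT NSCs (median 0.20), near the 57.2% of all genes called. Chst7 (2.18), Chst11 (1.02), Xylt1 (0.78) and Chst14 (0.77) rose, and the uronyl sulfotransferase gene Ust (−2.63) and Chst3 (−1.06) fell. With Igfbp2, 8 of the 19 were higher and none lower than in untreated Ncf1-/- NSCs, where 25.0% of all genes were called, 14.2% higher. Among the 8 were Chst11 (0.74) and Xylt1 (0.67), which starts the chains. Chst13 had at most 1 count in any library. Of the 8 proteases that cut lecticans and their inhibitor, Adamts1 (1.60), Adamts8 (1.23) and Adamts15 (1.15) rose in untreated Ncf1-/- NSCs, and Adamts4 (−1.65), Adamts5 (−0.98) and the inhibitor Timp3 (−0.86) fell. After Igfbp2 1 of the 8 rose, Adamts1 by 0.71 (edgeR adjusted p = 0.0391).

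Of 5 genes for PDGF ligands and the other receptor, all 4 that were tested fell in untreated Ncf1-/- against WT NSCs, where 28.2% of all genes were called lower. Pdgfa, which encodes a ligand of Pdgfra, went from 69.0 to 8.97 CPM (log2 fold change −2.94, edgeR adjusted p = 4.72e-06), and the ligand genes Pdgfd and Pdgfc had −1.34 and −0.57. Pdgfrb, the other PDGF receptor gene and a pericyte marker, went from 13.5 to 0.315 CPM (−5.36). After Igfbp2, Pdgfrb was at 1.31 CPM and called higher (2.02, edgeR adjusted p = 0.023), and the other 3 did not pass. Among relatives of single members, the tenascin gene Tnn fell by 3.28 and Lhfpl4 by 0.68 on the log2 scale, Neu1 rose by 0.34, and Neu2, Lhfpl1 and Lhfpl5 had 3 or fewer counts in every library. After Igfbp2 2 of the 6 tested relatives rose and none fell, where 25.0% of all genes were called, 14.2% higher. These were the tenascin gene Tnxb (1.87, edgeR adjusted p = 0.00823) and Lhfpl2 (0.50, edgeR adjusted p = 0.014), both named after their values were seen.

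Other genes of the lineage did not all move one way. Of 11 further precursor markers, 7 fell and 4 rose in untreated Ncf1-/- against WT NSCs (median −1.29, edgeR), against 28.2% of all genes lower and 28.9% higher. Gpr17, a receptor of committed precursors, had a log2 fold change of −5.37, C1ql1 one of −4.06, Sox10 one of −3.39, Matn4 one of −3.21 and Nkx2-2 one of −1.99. The 4 that rose were Susd5 (1.53) and, named after their values were seen, Megf11 (1.24) and the lineage transcription factor genes Olig1 (0.87) and Olig2 (0.29). None of the 11 passed the test between the Ncf1-/- groups, where 25.0% of all genes did. All 8 markers of myelinating oligodendrocytes fell as well (median −4.84), among them Mbp from 2448 to 2.78 CPM. After Igfbp2 all 8 stayed lower than WT, where 30.8% of all genes were called lower.

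Markers of other cell types differed between the same groups. In untreated Ncf1-/- against WT NSCs, where 57.2% of all genes were called and 28.2% were lower, 5 of 6 astrocyte markers fell. Aldh1l1 did not pass (0.65, edgeR adjusted p = 0.232). It was called higher in treated Ncf1-/- than in WT NSCs (1.26, edgeR adjusted p = 0.0277), but not without WT replicate 12. The summed level of the 6 was 6009 to 11001 CPM in WT, 2143 to 2588 in untreated and 2347 to 3241 in Igfbp2-treated Ncf1-/- NSCs. Gfap alone had a mean of 5474 CPM in WT and 760 in untreated Ncf1-/- NSCs. The 8 myelin markers summed to 1575 to 9344 CPM in WT and to at most 290.7 CPM in any Ncf1-/- library. In untreated Ncf1-/- against WT NSCs 4 of 6 neuronal markers fell and none rose, against 28.2% of all genes called lower. Their sum was 596 to 769 CPM in WT, 483 to 547 in untreated and 432 to 459 in Igfbp2-treated Ncf1-/- NSCs. After Igfbp2 2 of the 6 neuronal markers fell against untreated Ncf1-/- NSCs, where 25.0% of all genes were called, 14.2% higher and 10.7% lower. These were Tubb3 (−0.61, edgeR adjusted p = 0.0114) and Dcx (−0.83, edgeR adjusted p = 0.0113), and 4 did not pass. Of 5 tested fibroblast and pericyte markers, 3 were higher and 1 lower in untreated Ncf1-/- than in WT NSCs. The collagen genes Col3a1 (4.28), Col1a1 (1.31) and Col1a2 (1.28) rose there and Pdgfrb fell, as given above. After Igfbp2 3 of these 5 rose, Col1a1 (1.05, edgeR adjusted p = 0.0361), Col1a2 (1.58, edgeR adjusted p = 0.00394) and Pdgfrb, and the fibroblast and pericyte sum was 5.90 to 7.72 CPM in untreated and 10.95 to 13.9 in treated libraries. Among 6 neural stem cell markers in untreated Ncf1-/- against WT NSCs, Nes (1.92) and Fabp7 (0.96) rose and Prom1 (−1.34), Sox2 (−0.97) and Msi1 (−0.94) fell. Vim did not pass (1.13, edgeR adjusted p = 0.0636). The sum of the 6 ran from 2302 to 7772 CPM in WT against 7528 to 8158 in untreated Ncf1-/- NSCs. Vim had the highest mean of the 6 in both groups, at 1847 CPM in WT and 4040 in untreated Ncf1-/- NSCs. After Igfbp2 1 of these 6 was called against untreated Ncf1-/- NSCs, Msi1 as higher (0.42, edgeR adjusted p = 0.021). WT replicate 11, the lowest WT library for Tnr, had the lowest myelin sum (1575 CPM) and the highest stem cell (7772 CPM) and astrocyte (11001 CPM) sums of the WT libraries. The 6 microglial markers never summed to more than 1.45 CPM, with C1qa at 0 and Aif1, Cx3cr1 and Tmem119 at 3 or fewer counts in every library. Endothelial markers summed to at most 5.88 CPM with Cdh5 at 3 or fewer counts, and fibroblast and pericyte markers to at most 24.3 CPM with Lum and Kcnj8 at 3 or fewer counts. In the comparisons with WT, leaving out WT replicate 12 left each count of called list genes given here as it was, except that 7 and not 8 of the chondroitin enzymes rose in untreated Ncf1-/- NSCs. The part of the astrocyte, oligodendrocyte, neuronal and fibroblast shifts in the levels of the 9 genes, in any of the comparisons, was not tested.

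**Figure D4:**
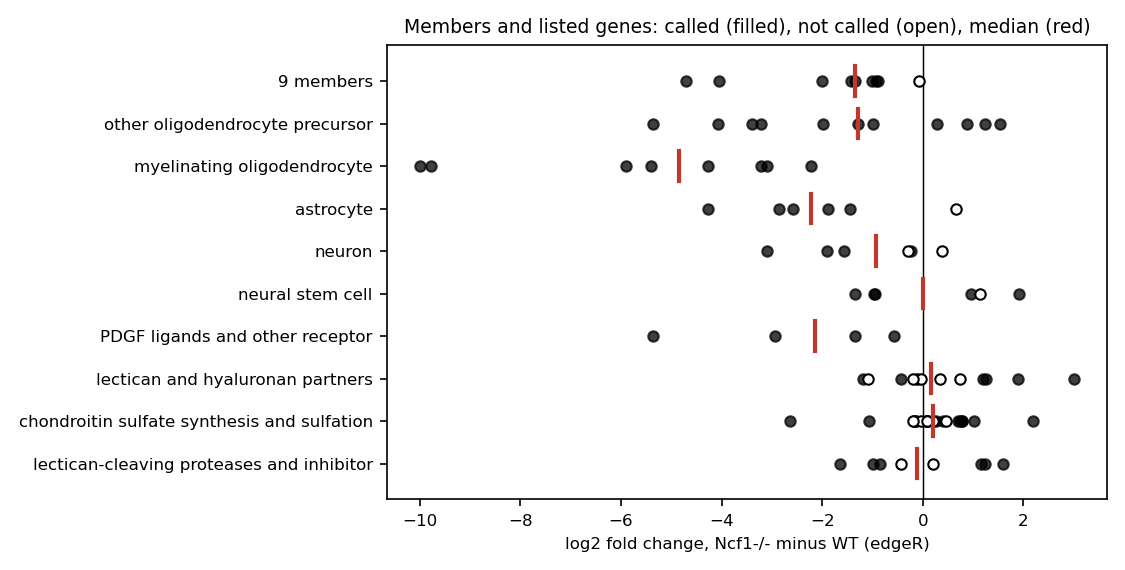
Log2 fold change between untreated Ncf1-/- and WT NSCs (x axis) for the 9 genes and for the tested genes of 9 lists (rows), with a point per gene, filled where the edgeR adjusted p was under 0.05, and a red line at the median. The median is −1.34 for the 9 genes, −1.29 for the further precursor markers and −4.84 for myelin genes, and it is 0.20 for the enzymes of chondroitin sulfate.

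Across the 12 libraries most members varied together, and less so once the group means were removed. Pearson's r of log2 CPM was 0.98 between Neu4 and Tnr, 0.98 between Bcan and Tnr and 0.99 between Bcan and Neu4 (n = 12 libraries of 3 groups, as a description, since the libraries share the group differences). Cspg4 was closest to Ncan (0.86), and Cspg5 had values between −0.30 and 0.14 with every other member. With the group means removed, Cspg4 and Tnr had an r of 0.93 and Cspg4 and Pdgfra one of 0.73, while Bcan and Tnr had 0.53, Vcan and Bcan −0.14 (0.89 across groups) and Lhfpl3 and Tnr −0.46 (0.91 across groups). WT replicate 11 was the lowest WT library for Cspg4, Tnr and Pdgfra, and r was not computed without it. With the group means removed 14 of the 36 pairs had an r below 0, against 6 across groups. Among the 11163 genes whose mean reached 5 CPM, those most like Tnr were Cyfip2 (0.999) and Ston2 (0.998), those most like Bcan were Gm13111 and Dscaml1 (both 0.996), and those most like Neu4 were Sh3bp4 and Usp20 (both 0.995). Eps15 and Slc44a5 (both 0.991) were most like Pdgfra, D5Ertd579e and Hipk3 (both 0.987) most like Vcan, R3hdm2 (0.992) and Tcf20 (0.986) most like Ncan, and Zfp3 (0.985) and Ppp2r2b (0.983) most like Lhfpl3. Tns1 (0.968) and Cacna1c (0.967) were most like Cspg4, and Klf15 (0.96) and C1qtnf5 (0.913) most like Cspg5. An r above 0.9 was shared with 1329 genes by Tnr and with 4 genes by Cspg5, so that the pattern of Tnr was a common one in these libraries.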

How the data were processed

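Bulk RNA depleted of rRNA was analysed in 12 libraries. Per the labels, the authors used Bowtie2, RSEM and build GRCm38; versions, annotation release and strand setting are not given in the sources used here. The authors deposited RSEM's expected count per gene, without normalization, and TPM, scaled to a fixed sum. A deposited merged table holds a score equal to TPM times the number of transcripts for 257083 of 257083 values above 0 (tolerance 0.005), used for symbols only.

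Expected counts (33.76% of those above 0 not whole) were rounded and fitted with edgeR 4.0.16 in R 4.3.3: filterByExpr (15706 genes, 99.91% of counts), TMM factors, a mean per group over 12 libraries, quasi-likelihood test, Benjamini-Hochberg. CPM are TMM-scaled, log2 CPM have a prior count of 2, and intervals use the fit's degrees of freedom. The fit was tested on simulated data, for which no values are given here. Loci come from GENCODE M21 and promoters from RefSeq. No replicates were duplicates: the nearest, untreated Ncf1-/- 2 and 3, differed with chi-square/df 4.72.

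The 9 genes and all lists were chosen with earlier results of these data known. All 9 are named. Of each list, up to 6 called genes with the largest change between untreated Ncf1-/- and WT NSCs are named, with defining genes near 0, and the 2 genes most like each member. Not every gene so selected is reported here. The methods pair Ncf1-/- cultures by animal. With group means removed, r across genes was −0.0673 to 0.0328 in the 4 pairs that the methods give to one animal and −0.248 to 0.257 in 12 others, and Y-linked levels differed within each of the 4 pairs. Alternatives were DESeq2 1.42.0, library totals, other filters, 2 groups only, the study's own test on TPM, limma 3.58.1 on log2(TPM + 1) and log2(TPM + 0.1), a log2 fold change of at least 1, the replicate block (fitted on the Ncf1-/- libraries alone) and leaving out each library. List counts and lectican shares without WT replicate 12 were added after the data were seen.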

Additional observations from a re-analysis of the deposited data

Results flagged for a closer look

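Within 27 groups of 4 libraries (9 genes in 3 groups), 3 held a library far from the other 3 by Dixon's test at the 95% level, where chance flags about 1 group in 20. Tnr was at 786 CPM in WT replicate 11. Tnr was at 73.2 CPM in untreated Ncf1-/- replicate 4. Cspg5 was at 314 CPM in Igfbp2-treated Ncf1-/- replicate 7.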

How the results depend on the processing

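In untreated Ncf1-/- against WT NSCs, 8 members were called with each library left out, and 6 to 8 in the other alternatives. In Igfbp2-treated Ncf1-/- against WT NSCs the numbers were 7, and 5 to 7. Between the Ncf1-/- groups 2 were called, 2 to 3 with a library left out, 4 with library totals (2 higher, 2 lower), 5 with only the 2 groups compared (3 higher, 2 lower), 6 with the replicate block (4 higher, 2 lower), 3 with each limma fit (0 higher, 3 lower), 0 with the test of the study on TPM and 0 at a log2 fold change of at least 1; the cause was not tested. At a mean of at least 5 CPM Neu4 was not tested, and 8 members remained. Over all genes tested in the 8 Ncf1-/- libraries alone, 5434 were called with the replicate block and 5709 without it. The fit of 12 libraries called 3923 (2294 to 3845 with a library left out), that with library totals 5906, the limma fits 6354 and 6519, and the study's test 2149.

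Of 438 alternative values of single members, 380 kept direction and call. Signs turned in the following. Cspg4 between treated Ncf1-/- and WT NSCs became 0.00 (just below 0) with DESeq2, −0.07 with library totals, −0.02 at a mean of at least 5 CPM, −0.01 with 2 groups, −0.38 with the study's test, −0.34 and −0.38 with limma on log2(TPM + 1) and log2(TPM + 0.1), −0.11, −0.01 and −0.02 without treated replicates 6, 7 and 8, and −0.12 and −0.03 without WT replicates 11 and 12 (−0.12 to 0.06 over all libraries left out). Cspg5 became 0.11 with library totals and 0.03 without WT replicate 11 between untreated Ncf1-/- and WT NSCs (−0.17 to 0.03 over libraries left out). Between the Ncf1-/- groups it was −0.10 with library totals, −0.28 with the study's test and −0.29 with both limma fits, and against WT after Igfbp2 −0.39 with the study's test, −0.34 with both limma fits and −0.02 without WT replicate 10. Between the Ncf1-/- groups Vcan became −0.15 with the study's test and −0.13 and −0.14 with limma, Tnr −0.02 and −0.03 with limma, Bcan 0.00 without untreated replicate 1, and Neu4 0.00 without a filter, 0.20 without untreated replicate 3, and 0.02 and 0.12 without treated replicates 5 and 7 (−0.16 to 0.20 over libraries left out). The median over all genes moved from 0.04 to −0.43 (study's test) and −0.42 (log2(TPM + 0.1)) between the Ncf1-/- groups, from 0.02 to 0.19 (library totals) between untreated Ncf1-/- and WT NSCs, and from −0.01 to −0.43 (study's test) between treated Ncf1-/- and WT NSCs. Depth limits Neu4, with 11 to 27 counts in Ncf1-/- libraries. P-values measure the spread between the libraries of a group. Untreated Ncf1-/- libraries held both Y-linked RNA and Xist, so whether each came from a separate animal could not be settled.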
